A study of Mus musculus with 48 samples.

Results

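This account compares LPS with CpG B in Flt3L cultures of mouse bone marrow, which the labels call pDC (plasmacytoid dendritic cells). It rests on the 8 libraries of those cultures given either ligand for 1, 2, 4 or 6 h, out of 48 samples in the series and 32 in its stimulation experiment. LPS and CpG B libraries were paired by time, with 4 libraries a side. The cells came from the bone marrow of female C57BL/6 mice (C57BL/6J in the growth notes), 6 to 10 weeks old. All 8 cultures grew with Flt3L, a growth factor for dendritic cell precursors. LPS was given at 100 ng/ml and CpG B at 5 uM. The labels name no transgene or gene deletion in these cultures. An untreated Flt3L library gives the level before stimulation, and the same ligands and times in GM-CSF cultures (called moDC, monocyte-derived dendritic cells) serve as a second setting. Each ligand and time is 1 library, so the p-values of the ligand difference measure how steady it was over the 4 times. That spread may be technical. For its change from early to late times, the p-values measure how alike it was within 1 and 2 h and within 4 and 6 h. How many animals went into a library is not given in the sources used here.

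LPS is a lipid of Gram-negative bacterial walls that binds TLR4 with its partner Ly96 (MD-2). TLR4 signals through Myd88 at the cell surface and through Ticam1 (TRIF) from endosomes, and the second route leads to interferon beta and interferon-stimulated genes. CpG B is a synthetic DNA oligonucleotide sensed by TLR9 in endosomes, which signals through Myd88 alone and is known in dendritic cells for inducing IL-12, NF-kB targets and maturation. Plasmacytoid dendritic cells express TLR9 and TLR7 and are known for type I interferon, while conventional dendritic cells, which Flt3L also makes, are known for IL-12.

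The 8 libraries held 381287 to 541074 counts, so that 1 count was worth 1.85 to 2.62 CPM (a gene's counts scaled to a common library total) and a count of 0 allows up to 5.54 to 7.87 CPM, from counting error only. The 20 genes of the pDC identity list summed to 5221 to 8676 CPM under LPS and 4864 to 7245 CPM under CpG B, against 5778 CPM untreated. Without Irf7 and Bst2, which interferon is known to induce, the other 18 summed to 4033 to 4644 CPM, 3954 to 4545 CPM and 4748 CPM. That sum joins members that moved in opposite ways. Ly6d was at 1007 CPM untreated and at 1820 and 2366 CPM at 6 h of LPS and CpG B. In the same order Tcf4 was at 79.5, 108 and 139 CPM. Irf8 was at 1979, 860 and 765 CPM, and Ccr9 at 127, 47.2 and 33.3 CPM. Siglech, a surface lectin that marks mouse plasmacytoid cells, was at 103 to 404 CPM in the stimulated libraries. Genes listed for conventional dendritic cells and other myeloid cells were also measured. The 14 genes of the type 1 conventional list summed to 2583 to 5413 CPM, the 12 of the type 2 list to 2563 to 3732 CPM and the 21 of the monocyte and macrophage list to 5190 to 10600 CPM. Irf8, which is also in the pDC list, held 1884 of the 5413 CPM of the type 1 list at 1 h of LPS. In that library Xcr1 and Clec9a were at 47.2 and 77.3 CPM, and S100a4 held 1994 of the 3578 CPM of the type 2 list. These sums alone do not give the cell composition of the cultures labelled pDC. B cell, T cell, NK cell and erythroid lists were low, with highest sums of 292, 135, 249 and 21.2 CPM, and Hba-a2 was at 0 in all 8 libraries. Gapdh and Ppia, often used as reference genes, had only 11 and 12 counts over the 8 libraries, and the handling of multiple hits is not known. A count of 0 for Hba-a2 thus does not show that erythroid cells were absent. The 1108 olfactory receptor genes, which these cells are not known to use, summed to 1249 to 1946 CPM, so scattered counts reached many genes. In RNA from a culture that may be mixed, fewer cells of a type and less RNA per cell cannot be told apart.

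The receptor of CpG B was readily measured and that of LPS was not. Tlr4 had 7 counts over the 4 LPS libraries and 10 over the 4 CpG B libraries, and 3 in the untreated one, too few to test. Tlr9 was at 84.9, 144, 237 and 176 CPM at 1, 2, 4 and 6 h of LPS and at 101, 212, 261 and 161 CPM of CpG B, against 101 CPM untreated. Its log2 difference of LPS over CpG B was -0.21 ± 0.20 (standard error of the fit over 4 pairs) and was not called. Cd14, which hands LPS to TLR4, was at 113 to 183 CPM under LPS and 68.4 to 185 CPM under CpG B, with 47.7 CPM untreated. Ly96 was at 18.9 to 52.5 CPM and 9.85 to 46.2 CPM. None of the 13 tested genes of the TLR sensing list and none of the 15 tested TLR adaptors and kinases was called over the 4 times, and their median log2 differences were 0.02 and -0.06. In these lists edgeR's unadjusted p was below 0.05 for 0 and 3 genes, and DESeq2 called 0 in both. Ticam1 was at 67.9 to 105 CPM under LPS and 135 to 172 CPM under CpG B, with 76.8 CPM untreated. In the split by time described below, it was called lower under LPS at 1 and 2 h (-1.09 ± 0.26). Of all tested genes, 1.2% were.

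Over the 4 times, more genes were higher under CpG B than under LPS, and Il12b differed most. The question is which genes depend on the ligand once time is accounted for. Of 6184 genes tested, 30 were called (0.485%), at an adjusted p below 0.05 in edgeR's quasi-likelihood test and a fold of at least 2. Higher under LPS were 8 genes (0.129%), and higher under CpG B were 22 (0.356%). The median log2 difference of all tested genes was 0.01. Of the 30 genes, 26 had the same sign at all 4 times, as had 1192 of all 6184 tested genes. The test favours genes with a steady difference, so this adds no support to the calls. The exceptions were Serpina3g, Cxcl9, Cd8a and Ppfia3. The CPM of the LPS and CpG B libraries did not overlap at all for 129 tested genes (2.09%), of which 7 were called: Il12b, Lta, Nfkbiz, Bcl2l11, Zc3h12c and Socs3 below, and AMICA1 above, under LPS. The calls lean on the 4 h pair. On the same 6184 genes 7 were called without 4 h, Il12b, Lta, Nfkbiz, 1100001G20RIK, FAM129C and Ccl4 among them, 17 without 2 h, 33 without 6 h and 68 without 1 h. Those 6 genes were called whichever time was left out. Lta entered these fits only through its CpG B libraries, so for it these calls add no support. AMICA1, Ccl3, Cxcl10, Cxcl9 and Jun were called in 3 of 4 fits, Plekho1, Serpina3g, Socs3 and Xcl1 in 1 and Tet2 in 0. With the filter of at least 20 CPM in at least 4 libraries applied again after each omission, 2, 14, 13 and 52 genes were called without 4, 2, 6 and 1 h, and Lta was then not tested in any fit.

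**Figure D1:**
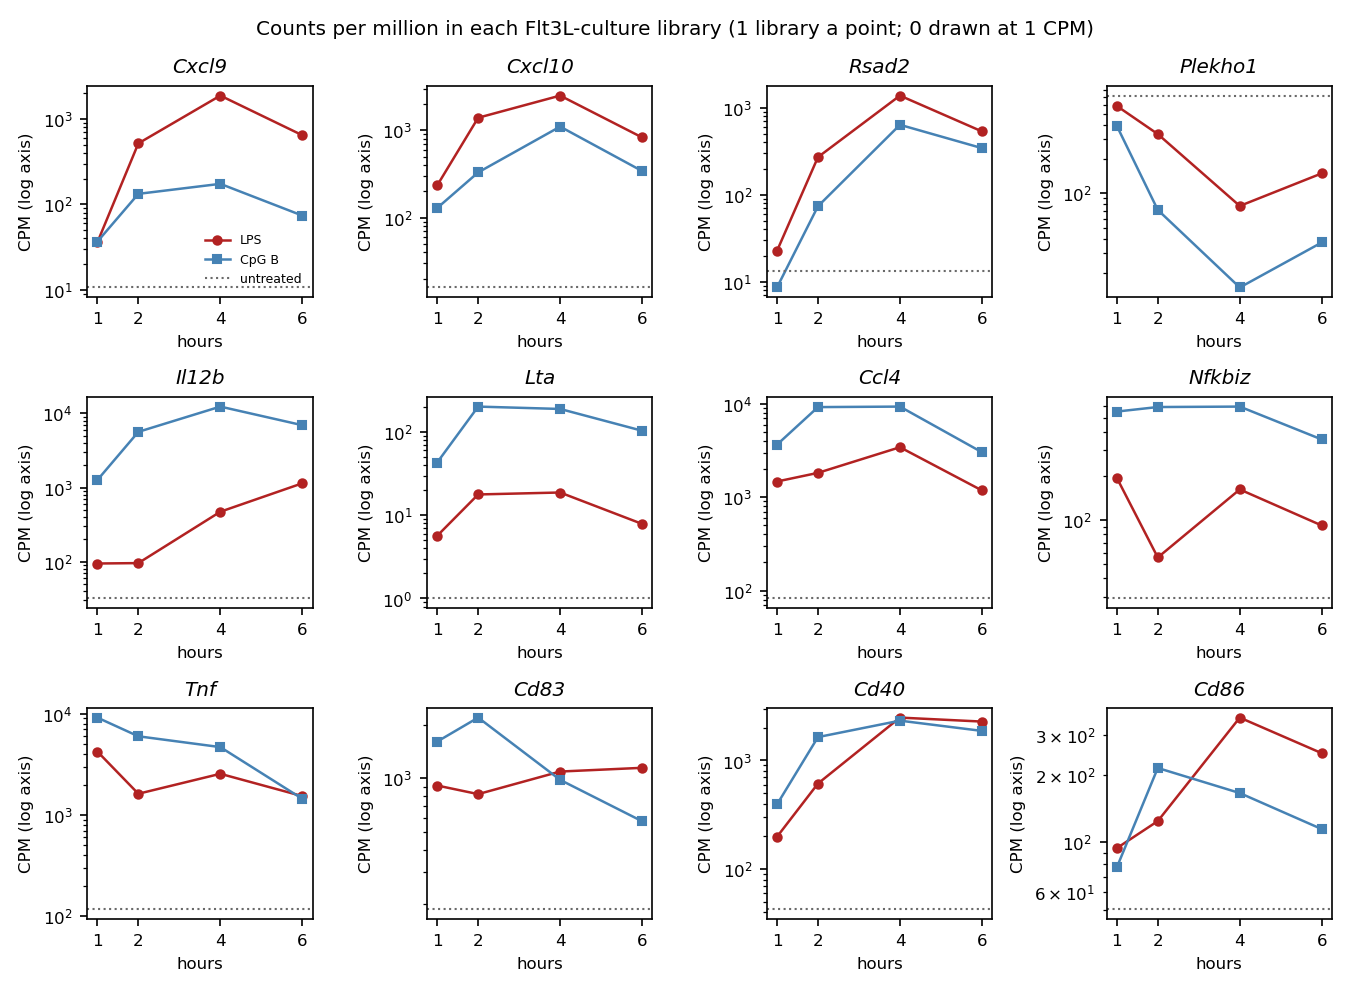
Level of 12 genes (vertical log axis, CPM) against time (horizontal axis, hours) in LPS (red circles) and CpG B (blue squares) libraries, 1 library a point, with the untreated library dotted. Cxcl10 and Rsad2 are above CpG B at each time under LPS, Il12b and Lta are below it at each time, and Cd83 and Cd40 change places between 2 and 4 h.

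The widest gap was that of a cytokine gene, Il12b, the p40 subunit shared by IL-12 and IL-23, which stood first among the calls. Il12b was at 94.3, 95.5, 471 and 1141 CPM at 1, 2, 4 and 6 h of LPS. Under CpG B it was at 1262, 5645, 12374 and 6942 CPM, against 31.8 CPM untreated. The 1 h CpG B library thus already lay above the 6 h LPS library. The log2 difference was -4.20 ± 0.44 (edgeR, adjusted p = 0.000308). The genes of the partner subunits, Il12a and Il23a, had 36 and 31 counts over the 4 LPS libraries and 44 and 41 over the 4 CpG B libraries. Il12a was not called (-0.16 ± 0.48), and Il23a fell below the filter. Il6 was not called either (-0.45 ± 0.33). Lta, the lymphotoxin alpha subunit, was at 5.66, 17.8, 18.8 and 7.87 CPM under LPS and at 43.0, 202, 189 and 103 CPM under CpG B, and it had no count untreated. Its LPS libraries lay at the level of a few counts and all below the CpG B libraries. Alone among the 30 called genes it passed the filter through 1 side only, here CpG B, so that a difference was built into its being tested. It had a log2 difference of -3.41 ± 0.28 (adjusted p = 4e-05). Xcl1, the chemokine that attracts type 1 conventional dendritic cells, reached 56.6 CPM under CpG B and 21.0 CPM under LPS, at a log2 difference of -2.47 ± 0.51 (adjusted p = 0.048).

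The promoter windows of a few genes with large differences are shown for each direction, since these genes define the contrast. Each window runs from 250 bases before to 50 bases after the RefSeq start of the gene, in GRCm38.p6, written 5′ to 3′ on the gene's strand. Capitals mark matches, on either strand, to an interferon response element, the kappa B consensus, AP-1 (TGANTCA), a gamma-activated site (TTCNNNGAA) or a C/EBP site (TTGCNNCAA). Matches may overlap each other. The windows of the genes higher under CpG B are these.
Il12b, chr11:44399813-44400112, + strand: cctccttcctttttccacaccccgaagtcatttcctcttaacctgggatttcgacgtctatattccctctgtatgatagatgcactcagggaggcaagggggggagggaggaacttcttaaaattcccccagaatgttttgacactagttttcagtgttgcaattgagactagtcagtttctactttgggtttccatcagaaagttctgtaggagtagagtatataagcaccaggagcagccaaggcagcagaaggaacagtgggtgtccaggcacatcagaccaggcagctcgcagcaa
Lta, chr17:35205302-35205601, - strand: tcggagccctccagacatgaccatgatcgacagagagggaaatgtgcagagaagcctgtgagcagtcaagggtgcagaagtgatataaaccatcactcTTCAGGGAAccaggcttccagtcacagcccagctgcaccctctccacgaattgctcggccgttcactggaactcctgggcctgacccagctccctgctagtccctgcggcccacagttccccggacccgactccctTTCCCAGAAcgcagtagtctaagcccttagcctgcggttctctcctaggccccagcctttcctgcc
The Il12b window held no match to the 5 motifs, and the Lta window held 2 gamma-activated site matches.

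Over the whole inflammatory cytokine list the median difference was larger early than late. Of its 15 tested members 1, Il12b, was called over the 4 times, lower under LPS, where 0.356% of all tested genes were. The list's median log2 difference was -0.49 against 0.01 for all genes. A split into 1 and 2 h against 4 and 6 h was chosen after the values were seen. The early and late differences both came from 1 fit of all 8 libraries, with a shared spread. At 1 and 2 h, 7 genes (0.113%) were higher and 74 (1.2%) lower under LPS, 81 (1.31%) in all. In the cytokine list 6 of 15 were lower at these times, namely Il12b, Tnf, Il1b, Ebi3, Tnfsf9 and Tnfsf15, and the list's median was -1.33. At 4 and 6 h the list's median was 0.04, with Il15 higher and Il12b lower. In the test of late minus early 2 members passed, Il27 and Tnfsf9, both towards LPS, while Il12b, Tnf, Il1b, Ebi3 and Tnfsf15 did not (adjusted p = 0.0605 to 0.734). Tnf, the tumour necrosis factor gene, was at 4238, 1621, 2553 and 1537 CPM under LPS and at 9167, 5992, 4685 and 1445 CPM under CpG B. The ligands were thus far apart for Tnf at 1 and 2 h and close at 6 h, and its log2 difference was -1.62 ± 0.26 early and -0.31 ± 0.26 late. Ebi3, a subunit of IL-27, was at 258 CPM under LPS and 1024 CPM under CpG B at 2 h. Il15, a cytokine for NK cells and memory T cells, went the other way, at 251 and 160 CPM at 4 and 6 h of LPS against 136 and 73.9 CPM of CpG B, with a late difference of 1.08 ± 0.25. Over all 4 times Il15 was not called (adjusted p = 0.0509).

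Il10, the anti-inflammatory cytokine gene, fell below the filter of at least 20 CPM in at least 4 libraries and is given as counts because its values were seen to differ. It was at 13.2, 2.22, 7.03 and 21.0 CPM under LPS and at 8.60, 19.7, 78.6 and 166 CPM under CpG B. Summed over the 4 libraries a side, it had 19 counts under LPS and 139 under CpG B. The CpG B over LPS ratio was 6.95, with an exact 95% interval of 4.29 to 11.9 that covers counting error only. The ligands overlapped at 1 h and were far apart at 4 and 6 h.

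Most of the interferon genes themselves lay near the counting limit. None of the 16 type I and III interferon genes in the table passed the filter, and their sum was 31.1 to 75.4 CPM under LPS and 24.0 to 51.7 CPM under CpG B, against 21.2 CPM untreated. Ifnb1, the interferon beta gene, was at 45.3, 6.66, 9.38 and 2.62 CPM under LPS and at 19.3, 24.6, 10.6 and 1.85 CPM under CpG B. It was highest at 1 h of LPS and at 2 h of CpG B, and over the 4 libraries it had 32 counts under LPS and 25 under CpG B. Ifnb1 was thus higher under LPS at 1 h and higher under CpG B at 2 h, each from 1 library a side, and the summed counts join these. A difference in interferon genes was not tested, since none passed the filter.

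Interferon-stimulated genes mostly had positive differences, with higher summed levels under LPS. All 30 genes of the list were tested, of which 3 were called, all higher, where 0.129% of all tested genes were. A positive difference was found in 28, with a median of 0.53 against 0.01 for all genes. The summed level was 2160, 7715, 28380 and 21063 CPM under LPS and 1475, 4606, 17594 and 13834 CPM under CpG B. The LPS library was above the CpG B library at each time, and both ligands peaked at 4 h. The list's median was 0.36 at 1 and 2 h and 0.65 at 4 and 6 h. At these times 2 and 6 members were called higher, against 0.113% and 3.09% of all tested genes.

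Cxcl9 and Cxcl10, ligands of the T cell chemokine receptor Cxcr3, and Rsad2 (viperin, an antiviral enzyme) were the 3 called members. Cxcl9 was at 35.8, 520, 1890 and 648 CPM under LPS and at 36.5, 133, 174 and 73.9 CPM under CpG B, with 10.6 CPM untreated. The ligands gave the same level at 1 h and parted from 2 h on, and the log2 difference over the 4 times was 2.42 ± 0.41 (adjusted p = 0.0194). Cxcl10 was at 234, 1393, 2497 and 829 CPM under LPS and at 129, 330, 1103 and 342 CPM under CpG B, above at each time. Its difference was 1.35 ± 0.20 (adjusted p = 0.00724), with 1.42 early and 1.32 late. Rsad2 was at 22.6, 271, 1381 and 535 CPM under LPS and at 8.60, 73.9, 637 and 344 CPM under CpG B, a difference of 1.18 ± 0.21 (adjusted p = 0.0231).

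Other members were called late alone or not at all. Oasl1, known in mice to hold back Irf7 translation, was at 1625 and 1220 CPM at 4 and 6 h of LPS and 465 and 248 CPM of CpG B, a late difference of 2.14 ± 0.21. Cmpk2, Isg20 and Gbp2 were also called higher at 4 and 6 h, with differences of 1.58, 1.27 and 1.23. Irf7, the transcription factor that amplifies interferon genes, was at 2131 and 2080 CPM late under LPS and 1222 and 1113 CPM under CpG B and was not called (0.82 ± 0.19, adjusted p = 0.0589). Isg15 and Mx1, abundant members of the list, had differences of 0.40 and 0.35 and were not called. Ddx58 (RIG-I) and Rtp4 had negative values, -0.10 and -0.09.

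The windows of the genes higher under LPS are shown next, with Cxcl10 added after its matches were seen as a called member of the interferon-stimulated list that was higher at each time.
AMICA1 (Jaml), chr9:45078933-45079232, + strand: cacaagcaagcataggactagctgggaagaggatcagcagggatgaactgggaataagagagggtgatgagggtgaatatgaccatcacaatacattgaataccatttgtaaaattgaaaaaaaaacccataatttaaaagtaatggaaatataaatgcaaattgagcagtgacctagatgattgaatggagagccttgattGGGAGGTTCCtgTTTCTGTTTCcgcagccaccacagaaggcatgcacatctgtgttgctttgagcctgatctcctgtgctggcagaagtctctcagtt
Cxcl10, chr5:92348840-92349139, - strand: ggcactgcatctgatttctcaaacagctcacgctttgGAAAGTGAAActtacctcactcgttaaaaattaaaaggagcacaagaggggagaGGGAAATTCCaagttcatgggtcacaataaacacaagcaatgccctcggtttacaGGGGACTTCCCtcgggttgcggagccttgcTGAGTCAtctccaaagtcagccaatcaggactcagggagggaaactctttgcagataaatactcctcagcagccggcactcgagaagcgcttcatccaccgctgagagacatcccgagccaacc
The AMICA1 window held 1 interferon response element beside 1 kappa B match. The Cxcl10 window held 1 interferon response element, 3 kappa B matches, of which a pair overlap, and 1 AP-1 match.

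Across the calls, 7 of the 8 genes higher under LPS and 15 of the 22 higher under CpG B had a window. An interferon response element was found in 4 of the 7 (Cxcl10, Jaml, Mmp13 and Rsad2) and in 0 of the 15. Among all 27025 genes with a window 3.99% held one, and among the 4985 tested genes with a window 4.23%, and the shares below are given in the same order. The kappa B consensus was found in 3 of the 7 and 2 of the 15, against 9.55% and 12.6%. AP-1 was found in 4 of the 7 and 0 of the 15, against 8.97% and 6.38%. The gamma-activated site was found in 1 and 2, against 9.55% and 8.04%, and the C/EBP site in 0 and 0, against 2.38% and 1.69%. These are letter matches in short windows and were not tested.

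Of the genes higher under LPS, Plekho1 and Rgs14 were at or below their untreated level. Plekho1, a pleckstrin-homology adaptor protein, was at 585, 331, 77.4 and 149 CPM under LPS and at 391, 71.4, 14.9 and 37.0 CPM under CpG B, from 721 CPM untreated. Both ligands lay below the untreated library at each time, CpG B further, and the difference was 1.56 ± 0.28 (adjusted p = 0.0231). Rgs14, a regulator of G protein signalling, had the same shape at 117, 57.7, 49.2 and 31.5 CPM against 45.1, 4.92, 17 and 3.70 CPM, from 117 CPM untreated (1.92 ± 0.36, adjusted p = 0.0254). AMICA1 (now Jaml), an adhesion molecule of leukocytes, was at 183, 187, 277 and 131 CPM under LPS and 92.4, 73.9, 102 and 20.3 CPM under CpG B, from 151 CPM untreated. Its LPS libraries were above the untreated one in 3 of 4 and above all its CpG B libraries (1.48 ± 0.26, adjusted p = 0.0194). Mmp13, a collagenase, was at 49.0, 68.8, 197 and 186 CPM under LPS and 23.6, 41.9, 61.6 and 57.3 CPM under CpG B, from 7.95 CPM untreated (1.38 ± 0.26, adjusted p = 0.0264). Both ligands lay above the untreated library. Serpina3g, a serine protease inhibitor with close copies that could share reads, was at 20.7, 233, 950 and 294 CPM and at 27.9, 71.4, 244 and 133 CPM, from 15.9 CPM untreated (1.37 ± 0.28, adjusted p = 0.049).

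Chemokine genes were called in both directions. Of 14 tested members 2 were higher under LPS (Cxcl9 and Cxcl10) and 2 lower (Ccl3 and Ccl4), with a median of 0.06. Of all tested genes 0.129% were higher and 0.356% lower. Ccl4, a chemokine for monocytes and T cells, was at 1471, 1821, 3428 and 1180 CPM under LPS and at 3650, 9222, 9338 and 3029 CPM under CpG B. It was lower under LPS at each time, with a difference of -1.62 ± 0.23 (adjusted p = 0.00454). Ccl3, its neighbour on chromosome 11, differed by -1.41 ± 0.22 (adjusted p = 0.0105). The RefSeq annotations of the pair overlap, so reads could be shared between them. Ccl5 and Ccl22, the most abundant at 6 h of LPS with 13132 and 11506 CPM, differed by -0.69 and 0.04 and were not called.

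NF-kB feedback genes leaned towards CpG B. Of 18 tested members 16 had a negative difference, with a median of -0.42. Called lower were 2, Nfkbiz and Socs3, where 0.356% of all tested genes were. Nfkbiz encodes I kappa B zeta, a nuclear cofactor known to be needed for Il12b and Il6 transcription. It was at 194, 55.5, 162 and 91.8 CPM under LPS and at 550, 591, 595 and 355 CPM under CpG B, with 29.1 CPM untreated. The groups did not overlap, and the difference was -2.13 ± 0.28 (adjusted p = 0.00278). Socs3, an inhibitor of cytokine receptor signalling, was at 323 to 521 CPM and 627 to 1002 CPM (-1.02 ± 0.18, adjusted p = 0.0226). Its relative Socs1 was called higher under LPS at 1 and 2 h, at 649 CPM against 256 CPM at 2 h (1.03 ± 0.26). At these times 5 of the 18 members were lower and 1 higher, against 1.2% and 0.113% of all tested genes. The list's median was -0.79, while at 4 and 6 h it was -0.01. Nfkbia, the classical inhibitor, differed by -0.53 ± 0.19 and was not called.

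Immediate early genes had a median of -0.43 over 12 tested members, at -0.78 early and -0.02 late. Of these 1, Jun, was called lower under LPS, where 0.356% of all tested genes were. Egr1, Fos, Egr2 and Fosb fell below the filter. At 1 h they were at 890, 145, 96.2 and 52.8 CPM under LPS and at 965, 142, 83.8 and 79.5 CPM under CpG B. Jun, an AP-1 subunit, was at 330, 189, 246 and 262 CPM under LPS and at 546, 318, 631 and 702 CPM under CpG B (-1.08 ± 0.18, adjusted p = 0.0194). It was lower under LPS at each time, though the ranges overlap across times. In the apoptosis list 1 of 14 tested members was lower, against 0.356% of all tested genes. This was Bcl2l11, which encodes the death activator Bim. It was at 30.2 to 52.5 CPM under LPS and 66.6 to 178 CPM under CpG B, without overlap (-1.48 ± 0.27, adjusted p = 0.0231). At 1 and 2 h the survival genes Bcl2l1, Bcl2a1b and Bcl2a1d were called lower as well, by -1.49, -1.34 and -1.57, and the last pair are close copies that could share reads.

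Further genes higher under CpG B lay outside the lists. The gene listed as 1100001G20RIK (now Wfdc21), which encodes a whey acidic protein domain, was at 22.6, 31.1, 91.4 and 91.8 CPM under LPS and at 32.2, 162, 776 and 1270 CPM under CpG B (-2.78 ± 0.35, adjusted p = 0.00173). FAM129C (now Niban3) was at 26.4 to 42.0 CPM and 36.5 to 268 CPM (-2.12 ± 0.30, adjusted p = 0.00454). Both were near the same level with the 2 ligands at 1 h and moved apart later.

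Cd8a was the single member called among 11 tested genes of the type 1 conventional list, lower under LPS, where 0.356% of all tested genes were. It was at 7.54, 20, 70.3 and 157 CPM under LPS and at 10.7, 17.2, 416 and 776 CPM under CpG B, with 13.2 CPM untreated (-1.90 ± 0.33, adjusted p = 0.0194). The ligands gave like levels at 1 and 2 h, and CpG B the higher ones at 4 and 6 h. The T cell list, which holds other markers, stayed at 57.7 to 68.0 CPM under LPS and 90.3 to 135 CPM under CpG B, and Cd3e had 4 and 8 counts. Clec9a and Naaa of the same list went the other way late, with 4 and 6 h differences of 2.24 ± 0.36 and 2.54 ± 0.37. Eif1ax, a translation initiation factor, was at 37.7, 44.4, 58.6 and 65.6 CPM under LPS and 47.3, 86.2, 295 and 447 CPM under CpG B (-1.76 ± 0.31, adjusted p = 0.0212). Wnt10b, a secreted Wnt ligand, Furin, a proprotein convertase, and Tet2, a DNA demethylation enzyme, differed by -1.38, -1.17 and -1.13.

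**Figure D2:**
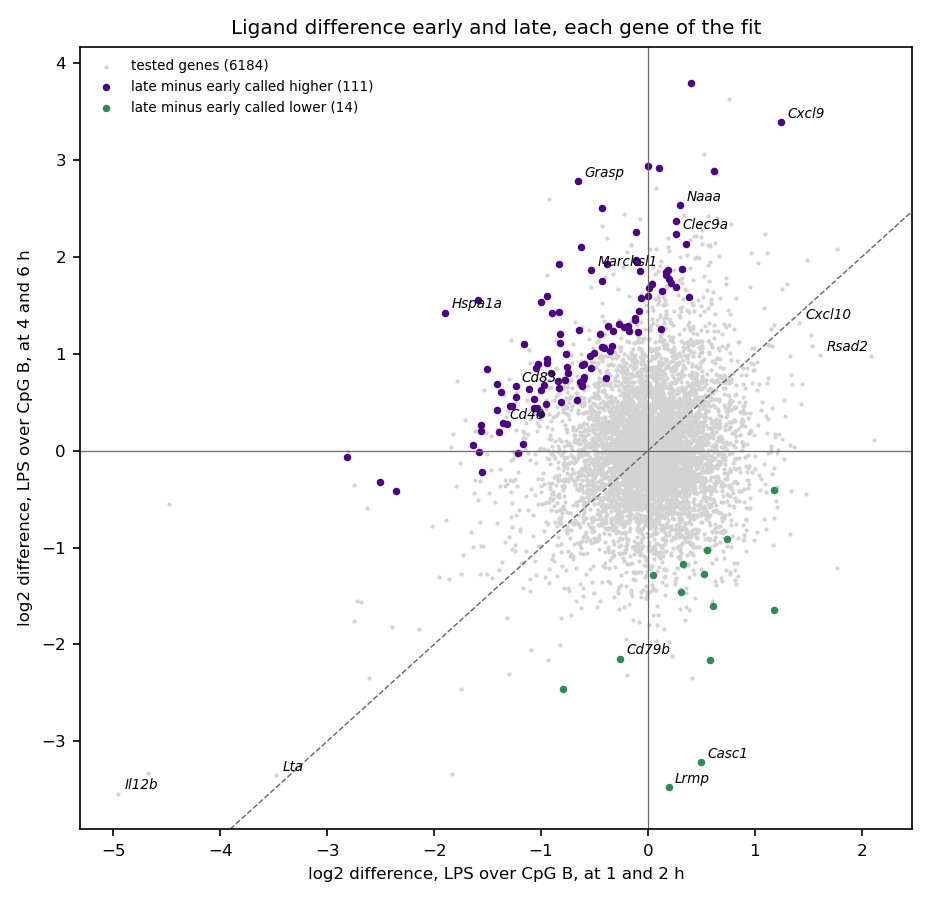
Log2 difference of LPS over CpG B at 1 and 2 h (horizontal axis) and at 4 and 6 h (vertical axis) for each of 6184 tested genes (grey), with genes called for the change between them in purple (111 higher late) and green (14 lower late); the dashed line marks equal differences. Il12b and Lta lie far down on both axes, while most purple points lie left of 0 early and above 0 late.

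The ligand difference was next compared between early and late times. The test of late (4 and 6 h) minus early (1 and 2 h) called 125 of 6184 genes (2.02%). Of these, 111 (1.79%) moved towards LPS and 14 (0.226%) towards CpG B. The split was chosen after the values were seen. The spread behind these p-values rests on few libraries, 1 for each ligand and time. With column totals in place of TMM scaling 53 and 16 were called, and the median of all genes then moved to -0.21 from 0.01. DESeq2 called 33 and 2. On the same genes 37 were called without the 2 h pair, 35 without 6 h, 116 without 4 h and 291 without 1 h. With the filter applied again these counts were 11, 32, 115 and 131. In the same fit of all 8 libraries, 191 genes (3.09%) were higher under LPS at 4 and 6 h and 104 (1.68%) lower, 295 (4.77%) in all.

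Of the lists, DC maturation had the most members called in the test of late minus early. Of 13 tested members 0 were called over the 4 times by edgeR (2 had an unadjusted p below 0.05) and 0 by DESeq2, yet 6 were called in the test of late minus early, all towards LPS. The list's median went from -0.98 at 1 and 2 h to 0.44 at 4 and 6 h, and its sum was 5055, 5917, 12867 and 15508 CPM under LPS and 7121, 12555, 12761 and 12627 CPM under CpG B. The LPS sum was highest at 6 h and the CpG B sum lay at a like level from 2 h on, though its members moved apart. From 2 to 6 h of CpG B, Icam1 went from 1859 to 599 CPM and Marcksl1 from 2361 to 621 CPM, while Fscn1, an actin-bundling protein, went from 778 to 3707 CPM. Cd83, a maturation marker, was at 913, 817, 1093 and 1146 CPM under LPS and at 1606, 2186, 982 and 577 CPM under CpG B, and changed by 1.90 ± 0.34 (adjusted p = 0.00308). Cd40, the receptor for T cell help, was at 198, 613, 2483 and 2282 CPM and at 393, 1642, 2327 and 1872 CPM, a change of 1.64 ± 0.31 (adjusted p = 0.00579).

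Cd86, a costimulator for T cells, was at 94.3, 124, 359 and 249 CPM under LPS and at 77.4, 214, 166 and 115 CPM under CpG B, a change of 1.65 ± 0.37 (adjusted p = 0.0178). Icam1, an adhesion molecule, and Marcksl1, an actin-linked protein, changed by 1.65 ± 0.28 and 2.39 ± 0.34, and both were called whichever time was left out. With the filter applied again, Cd83, Cd40, Cd86 and Icosl were not called without 2 h or without 6 h. Ccr7, the receptor that guides dendritic cells to lymph nodes, did not cross, at 451, 351, 1289 and 2473 CPM under LPS and 445, 1708, 3102 and 3532 CPM under CpG B (late minus early 0.48 ± 0.49, adjusted p = 0.736).

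**Figure D3:**
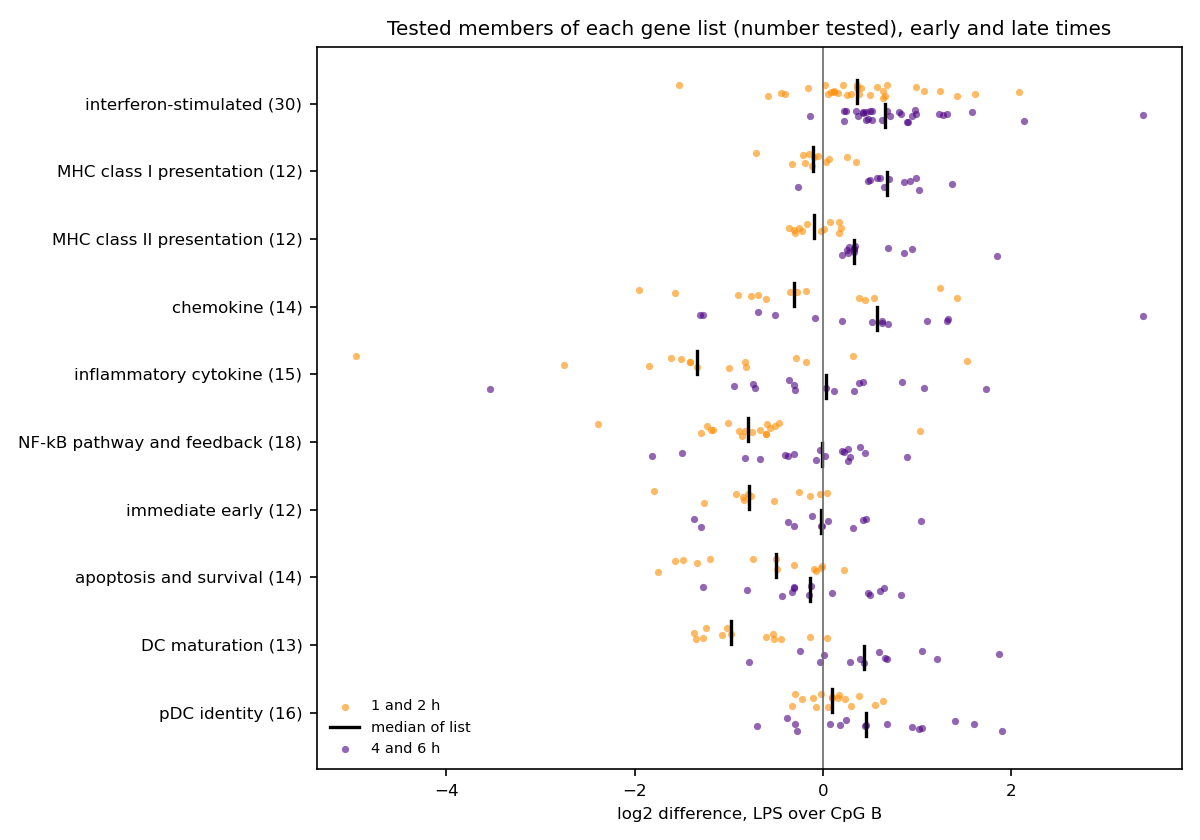
Log2 difference of LPS over CpG B (horizontal axis) of each tested member of 10 gene lists (vertical axis, number tested in brackets) at 1 and 2 h (orange) and 4 and 6 h (purple), with the median as a black bar. The inflammatory cytokine median goes from -1.33 to 0.04 and that of DC maturation from -0.98 to 0.44, while interferon-stimulated genes are at 0.36 and 0.65.

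A few antigen presentation genes were called at 4 and 6 h, 2 of 12 in class I and 1 of 12 in class II, where 4.77% of all genes were. The 12 tested class I genes had a median of -0.11 early and 0.68 late, with Tap1 and Tap2, the peptide transporter subunits, called higher at 4 and 6 h. Tap2 was at 392, 373, 879 and 742 CPM under LPS and at 359, 409, 380 and 292 CPM under CpG B, and changed by 1.49 ± 0.29 (adjusted p = 0.00785). Tap1 had a late difference of 1.02 ± 0.20. Of the 12 class II genes, Ifi30, a thiol reductase of the antigen pathway, was called late at 1.84 ± 0.27, and the list's median was 0.33. The class II molecules H2-Aa, H2-Ab1 and H2-Eb1 differed over the 4 times by 0.05, -0.03 and -0.02 and were not called.

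Identity genes of plasmacytoid cells gave no call over the 4 times among 16 tested, with a median of 0.21, and here 4 genes had an unadjusted p below 0.05 in edgeR and DESeq2 called 0. Siglech was at 404, 362, 225 and 236 CPM under LPS and at 353, 251, 140 and 103 CPM under CpG B, from 440 CPM untreated, and was called higher at 4 and 6 h (1.02 ± 0.24). Flt3, the receptor for the culture's growth factor, was also higher late (1.36 ± 0.33), at 79.7 and 113 CPM against 44.6 and 35.1 CPM. Irf8, a transcription factor of these cells, was at 860 to 1884 CPM and 737 to 1707 CPM and differed by 0.32 ± 0.18, and Cebpb, a myeloid factor, by -0.05 ± 0.29, neither called. The B cell list summed to 96.1 and 126 CPM at 4 and 6 h of LPS and to 255 and 292 CPM of CpG B. The NK cell list summed to 103 and 36.7 CPM and to 57.4 and 16.6 CPM. Cd79b alone held 187 and 238 CPM of the B cell sums under CpG B, where Cd79a was at 4.25 and 1.85 CPM. Klrd1 held 89.1 and 26.2 CPM of the NK cell sums under LPS and 38.2 and 7.39 CPM under CpG B. The sums thus lean on single genes, and the part of these cell types in the late differences was not tested.

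The ligand difference of cytokine genes such as Il12b and Lta was not the same in GM-CSF cultures, whereas Rsad2, Mmp13 and Cxcl10 had positive values in both. A joint fit of 16 libraries tested the difference between the cultures on 7129 genes and called 33 (0.463%). In 4 (0.0561%) LPS over CpG B was higher in Flt3L cultures and in 29 (0.407%) lower. With column totals alone 25 were higher and 28 lower, and the median of all genes then lay at 0.15 in place of 0.03. Without the 4 h pairs 1 gene, Lta, was called, and without 2 h 17, so most of these calls rest on those times.

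Il12b was at 762, 4163, 10025 and 12517 CPM in GM-CSF cultures under LPS and at 2543, 6085, 11051 and 14134 CPM under CpG B. The difference there was -0.52 ± 0.34, against -4.19 ± 0.40 in the Flt3L cultures in the joint fit, and the cultures differed by -3.67 ± 0.51 (adjusted p = 0.000958). Lta was at 34.3, 83.1, 191 and 97.9 CPM under LPS and at 36.9, 84.0, 69.1 and 133 CPM under CpG B, with both ligands overlapping, and the cultures differed by -3.80 ± 0.44 (adjusted p = 0.00013). For 1100001G20RIK, Nfkbiz, Ccl4 and Ccl3 the GM-CSF difference lay between -0.15 and 0.03, and the cultures differed by -2.68, -2.05, -1.66 and -1.44.

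Il1b had differences of opposite sign in the 2 cultures. In GM-CSF cultures it was at 4082, 9772, 10568 and 8864 CPM under LPS and at 2736, 4780, 4952 and 5066 CPM under CpG B, a difference of 0.98 ± 0.24, against -1.07 ± 0.25 in Flt3L cultures (difference between cultures -2.05 ± 0.34, adjusted p = 0.00639). Il10 was at 0, 2.52, 13.9 and 20.1 CPM there under LPS, and under CpG B at 2.80 CPM at 2 h and 0 at the other times. The LPS levels of Il10 in the cultures were alike in range, and the CpG B levels were not. Its LPS over CpG B difference differed between cultures at an adjusted p of 0.0478 in edgeR, with the GM-CSF CpG B libraries at the counting floor. On the same genes this was called in 2 of the 4 fits that left out 1 time. With the filter applied again Il10 was tested in only 2 of them. Tnfrsf9, the costimulator 4-1BB, was at 203 to 275 CPM under LPS and 107 to 233 CPM under CpG B in GM-CSF cultures, while the Flt3L LPS libraries held 2.34 to 21.0 CPM and the CpG B libraries 4.30 to 192 CPM.

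Cxcl10 and Cxcl9 did not pass the test of a difference between cultures. Cxcl10 was at 185, 723, 2415 and 2041 CPM under LPS and at 44.8, 81.2, 1997 and 1736 CPM under CpG B in GM-CSF cultures, a difference of 1.27 ± 0.32 beside 1.35 ± 0.30 in Flt3L cultures. The difference between cultures was 0.08 ± 0.44 (adjusted p = 0.965), and for Cxcl9, at 25.0 CPM or less in GM-CSF cultures, it was 0.66 ± 1.51. Rsad2 differed by 1.71 ± 0.25 in GM-CSF and 1.16 ± 0.26 in Flt3L cultures, and Mmp13 by 1.31 ± 0.23 and 1.38 ± 0.25, and neither passed that test (adjusted p = 0.597 and 0.957). Higher in Flt3L cultures were Rgs14, Serpina3g, Txnip, a thioredoxin-binding redox regulator, and D4WSU53E (now Rsrp1). Txnip had 129, 98.2, 152 and 151 CPM under LPS and 253, 258, 273 and 211 CPM under CpG B in GM-CSF cultures, without overlap, and the cultures differed by 1.69 ± 0.26 (adjusted p = 0.00306). The receptors differed in level as well, with Tlr9 at 10.1 to 24.0 CPM in the GM-CSF libraries against 84.9 to 261 CPM in the Flt3L libraries, and Cd14 at 330 to 954 CPM against 68.4 to 185 CPM. The part of receptor levels in these differences was not tested.

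**Figure D4:**
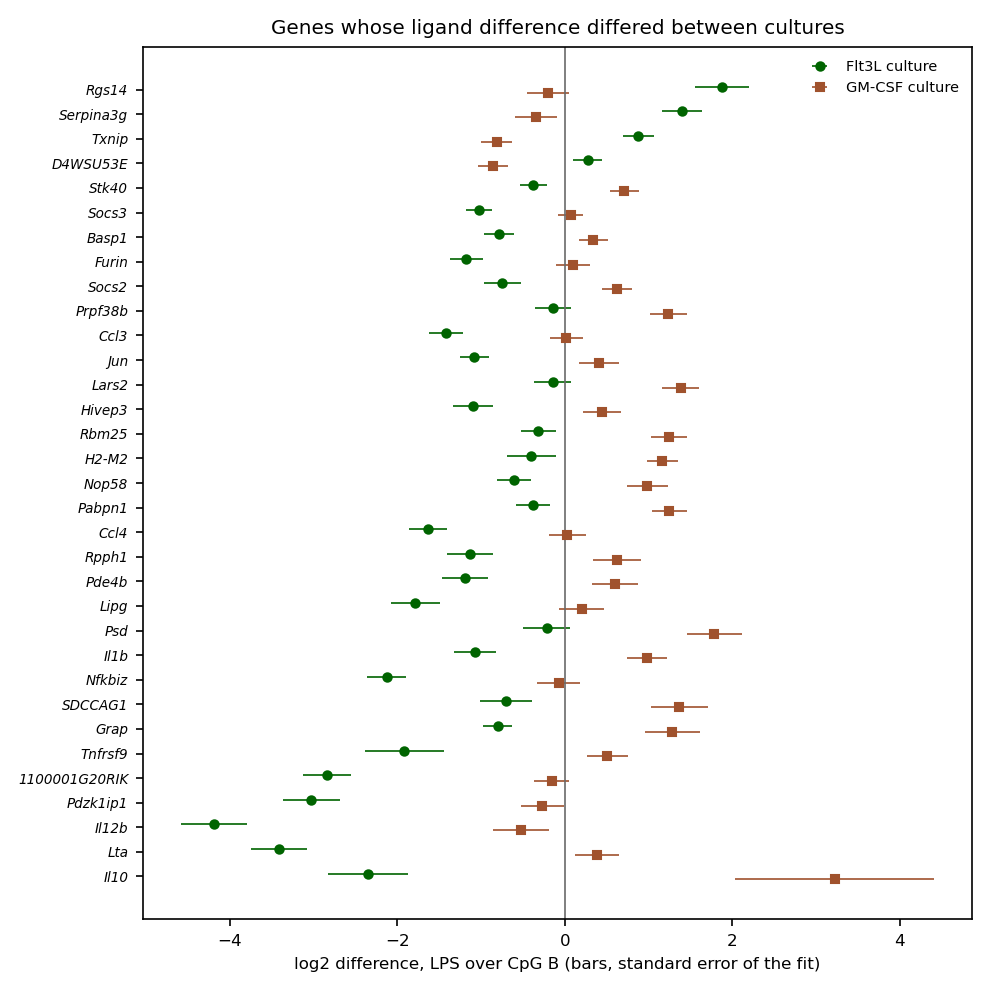
Log2 difference of LPS over CpG B (horizontal axis, bars are the standard error of the fit) in Flt3L cultures (green circles) and GM-CSF cultures (brown squares) for the 33 genes (vertical axis) called for a difference between cultures. The 29 lower genes, Il12b and Lta among them, have their green point left of the brown one.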

How the data were processed

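Libraries of transcript 3′ ends were made from cultured cells, per the labels' protocols. The authors deposited read counts, whole numbers and not normalized, for each gene symbol. Per the submitters' processing notes, TopHat and mm9 were used. For the counting step, the tool, strand setting and handling of multiple hits were not given in the sources used here. A row without a gene name (0.187% to 0.409% of a library) was left out. Of 21637 symbols, 21401 matched the reference gene names. Columns were matched to samples by name.

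CPM in the text are a gene's share of the column total, on the usual CPM scale. Log2 differences came from a two-sided quasi-likelihood test with TMM scaling (edgeR 4.0.16, R 4.3.3). Genes needed at least 20 CPM in at least 4 libraries, and p-values were adjusted over all genes by Benjamini-Hochberg. Time was a block in the ligand difference. Late minus early was the interaction of ligand and the later pair of times. The early and late differences were estimates of that same fit of 8 libraries, not of separate fits. The culture difference was the interaction of ligand and culture in 16 libraries, with culture and time as blocks. Standard errors came from the difference and its F statistic. DESeq2 1.42.0, other scalings, filters, designs and omitted times were alternatives. The scripts were tested on simulated data.

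The comparison and the gene lists were chosen with earlier results of these data known. Named genes are the 12 largest calls per direction with 1 sign at 4 times and a mean of at least 100 CPM, the leading members of each list, Tlr4, Ly96, Cd14, Tlr9, Irf8, Cebpb and Ifnb1, and the 6 largest interactions per direction. Some genes and sequences that the rule names are not reported here. Further genes were named after their values were seen. Promoter windows are from RefSeq (GRCm38.p6), 250 bases before to 50 after a start.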

Additional observations from a re-analysis of the deposited data

Results flagged for a closer look

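The genes below passed the test of the difference itself between times or between cultures, each in edgeR's quasi-likelihood test. For late minus early the log2 change in the LPS over CpG B difference was 3.44 for Grasp, 3.32 for Hspa1a, 3.14 for Gpr4, 2.94 for Avpi1 and 2.94 for Cst7. Grasp was at 109, 48.9, 75.0 and 129 CPM at 1, 2, 4 and 6 h of LPS and at 148, 81.2, 12.7 and 18.5 CPM of CpG B. Its late CpG B libraries stand alone as low. Hspa1a, a heat shock protein with a near-identical copy, was highest at 6 h with both ligands, at 262 and 116 CPM.

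Towards CpG B, the change was -3.71 for Casc1, -3.66 for Lrmp, -2.82 for Ipo4, -2.74 for 1300001I01RIK (now Cluh), -2.21 for Lyar and -1.89 for Cd79b. Lrmp was at 196, 151, 56.3 and 62.9 CPM under LPS and at 157, 123, 589 and 846 CPM under CpG B, and Casc1 at 102, 73.3, 30.5 and 39.3 CPM and at 58.0, 56.6, 268 and 438 CPM. They are neighbours on chromosome 6 whose RefSeq annotations overlap, so 1 signal may be counted in both. Cd79b, a B cell receptor subunit, was at 32.8 and 57.7 CPM late under LPS and 187 and 238 CPM under CpG B. Cd79a had 7 counts over the 4 CpG B libraries.

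Between cultures, the Flt3L minus GM-CSF change was 2.08 for Rgs14, 1.75 for Serpina3g, 1.69 for Txnip and 1.13 for D4WSU53E. It was -3.80 for Lta, -3.67 for Il12b, -2.76 for Pdzk1ip1, -2.68 for 1100001G20RIK, -2.43 for Tnfrsf9 and -2.09 for Grap. Pdzk1ip1 was at 1.89 to 28.8 CPM under LPS and 4.30 to 290 CPM under CpG B in Flt3L cultures, and at 10.5 to 126 CPM and 15.8 to 150 CPM in GM-CSF cultures.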

How the results depend on the processing

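Counts are given as higher then lower under LPS. For the ligand difference (8 and 22), column totals gave 17 and 36, a filter at 5 CPM 19 and 42, no filter 52 and 91, and 15 treated libraries of 4 ligands 3 and 19. Without the time block 0 and 0 were called, with 241 genes at an unadjusted p under 0.05, and DESeq2, with the block, called 7 and 21. The early and late estimates of the late minus early fit, chosen after the values were seen, gave 7 and 74 at 1 and 2 h and 191 and 104 at 4 and 6 h. Leaving out 1 time, with the filter applied again or, chosen after the values were seen, on the same genes, gave 0 to 33 and 2 to 35. For late minus early (111 and 14), column totals gave 53 and 16, DESeq2 33 and 2, and leaving out 1 time 9 to 257 and 2 to 34. For the culture difference (4 and 29), column totals gave 25 and 28, and leaving out 1 time 0 to 10 and 1 to 32. The cause of these shifts was not tested, beyond the fewer libraries.

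Uncalled genes near 0 changed sign. Cd14 came to 0.0104 with DESeq2 size factors, 0.0189 with column totals, 0.0281 with DESeq2, 0.000178 at 5 CPM, 0.43 at 4 and 6 h, and -0.24 to 0.25 without 1 time. Cebpb came to 0.42 at 4 and 6 h and -0.36 to 0.23 without 1 time, and Tlr9 to 0.0766 at 4 and 6 h. Genes near the floor of 5.54 to 7.87 CPM, Tlr4 and the interferons other than Ifnb1 among them, cannot be compared at this depth.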

Other observations

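Ccnd1 and Cdkn1a, cell cycle regulators outside the cell cycle list, were named after their values were seen. Ccnd1, the cyclin D1 gene, was at 800, 700, 797 and 805 CPM under LPS, close to 779 CPM untreated, and at 632, 310, 138 and 96.1 CPM under CpG B. The LPS and CpG B libraries did not overlap, which held for 2.09% of all tested genes. Over the 4 times Ccnd1 was not called (1.70 ± 0.37, edgeR, adjusted p = 0.0552). Its ligand difference changed by 2.27 ± 0.33 from early to late (edgeR, adjusted p = 0.000535). Cdkn1a, which encodes the inhibitor p21, was at 905, 760, 1489 and 837 CPM under LPS and at 1543, 1403, 710 and 207 CPM under CpG B, a change of 2.55 ± 0.33 (edgeR, adjusted p = 0.000143). Both genes were called for late minus early whichever time was left out. The cell cycle list itself gave 0 calls among 20 tested members over the 4 times in edgeR (0 at an unadjusted p below 0.05) and 0 in DESeq2, and 0 early, late or for late minus early in edgeR, and its sum was 1163 to 2929 CPM under LPS and 1213 to 2874 CPM under CpG B.

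IRG1 (now Acod1), the enzyme that makes itaconate, was at 149, 238, 832 and 682 CPM under LPS and at 120, 229, 261 and 229 CPM under CpG B, with a change of 1.67 ± 0.31 (edgeR, adjusted p = 0.00568). TMEM173, which encodes the DNA-sensing adaptor STING, was at 217, 251, 241 and 160 CPM under LPS and at 174, 209, 51.0 and 68.4 CPM under CpG B, against 268 CPM untreated, a change of 1.65 ± 0.36 (edgeR, adjusted p = 0.0156). Clcf1, a cytokine of the IL-6 family, was the reverse early, at 187 and 147 CPM at 1 and 2 h of LPS and 959 and 788 CPM of CpG B, and near equal at 6 h, at 115 and 92.4 CPM. These genes were named after their values were seen.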
